A study of Mus musculus with 64 samples.

Results

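The 9 genes described here encode enzymes of the urea cycle and several liver enzymes that break down amino acids. They are Cps1, Otc, Ass1, Asl, Tat, Tdo2, Sds, Gls2 and Gpt2, and they were chosen by name, through their Ensembl identifiers, from the 55573 genes of the count table. The choice was made with earlier results of these data known. Their expression was followed in 20 livers, out of 64 samples in the whole series. The livers came from male mice of 10 to 18 weeks, F1 hybrids of a C57BL/6J father and a 129sv mother, in 4 groups of 5. WT mice carried intact alleles. AS mice (Ube3a m-/p+, a model of Angelman syndrome) inherited the Ube3atm1Alb allele, with exon 5 of the ubiquitin ligase gene Ube3a deleted, from the mother. The deletion is constitutive and the paternal allele stays intact, so liver, where both parental alleles are active, keeps that copy. Within each genotype, 5 mice carried a subcutaneous pellet of 20 mg corticosterone and 80 mg cholesterol (CORT) and 5 a vehicle pellet of 100 mg cholesterol, and tissue was taken on day 6 after 5 days of exposure.

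The urea cycle turns the ammonia set free by amino acid breakdown into urea, with its first steps in the mitochondria of hepatocytes and the later ones in the cytosol. Amino acid catabolism feeds it, because transaminases and dehydratases strip nitrogen from amino acids and leave carbon skeletons for glucose synthesis. Glucocorticoids, acting through the glucocorticoid receptor (GR), are classical inducers of both sets of enzymes in liver, and tyrosine aminotransferase and tryptophan dioxygenase are textbook examples.

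Each library held between 18612550 and 20868924 read counts on genes, so 3 counts corresponded to 0.144 to 0.161 CPM, which are counts scaled to 1000000 in each library. CPM values are given after scaling by the trimmed mean of M-values (TMM). Ube3a was lower in the AS livers, at 28.5 to 38.6 CPM with vehicle and 32.4 to 37.5 CPM with CORT, than in the WT livers, at 41.8 to 54.4 and 44.4 to 53.5 CPM, with log2 fold changes of -0.55 (SE 0.0856, edgeR adjusted p = 0.0191) and -0.48 (SE 0.0855, adjusted p = 0.0133). The GR target genes Fkbp5, a chaperone of the receptor, and Tsc22d3 rose with CORT in both genotypes (Fkbp5 log2 fold change 3.43 in WT and 4.14 in AS, Tsc22d3 1.25 and 1.74), while Per1 and Sgk1 did not pass the test in either over all 20 livers. The 7 hepatocyte markers summed to between 96335 and 143522 CPM. Of the neuron markers, Neurod6 was at 0 in 16 of 20 livers, and Syt1, at up to 27.1 CPM, was the 1 that passed the filter on low counts and fell in both genotypes. The share of reads that did not align moved with treatment: it was 5.39% to 8.93% in WT vehicle, 3.20% to 4.77% in WT CORT, 4.52% to 6.69% in AS vehicle and 1.49% to 3.23% in AS CORT livers. The livers also fell into 2 sets on a surrogate variable, an axis of variation estimated over all genes beyond the group means: 6 livers lay between -0.43 and -0.22, and the other 14 between -0.015 and 0.25. The 6 were 2 WT vehicle (replicates 1 and 2), 1 WT CORT (replicate 1), 1 AS vehicle (replicate 1) and 2 AS CORT (replicates 1 and 2) livers, all with library numbers no higher than 8. Ube3a in AS against WT livers kept values between -0.54 and -0.47 under both and no longer passed (adjusted p from 0.0869 to 0.171). Calls that change when either is taken into account are given both ways. Within each genotype the share of reads not aligned did not overlap between CORT and vehicle livers. A call lost with that share as a covariate therefore cannot be told apart from a loss of contrast between the treatments.

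The 4 urea cycle genes were read from these loci of mouse mm10, in their order of action. Carbamoyl phosphate synthetase, which commits ammonia to the cycle, is encoded by Cps1 (chr1:67123026-67231259, plus strand). Ornithine transcarbamylase, which makes citrulline, is encoded by Otc (chrX:10252305-10321024, plus strand). Argininosuccinate synthetase is encoded by Ass1 (chr2:31470207-31520672, plus strand) and argininosuccinate lyase, which releases arginine, by Asl (chr5:130011258-130029247, minus strand). Of the catabolic enzymes, tyrosine aminotransferase is encoded by Tat (chr8:109990437-109999803, plus strand) and tryptophan dioxygenase, which opens the kynurenine pathway, by Tdo2 (chr3:81957090-81976202, minus strand). Serine dehydratase, which yields pyruvate and ammonia, is encoded by Sds (chr5:120476526-120483932, plus strand). The liver-type glutaminase, which releases ammonia from glutamine, is encoded by Gls2 (chr10:128194457-128210004, plus strand), and mitochondrial alanine aminotransferase by Gpt2 (chr8:85492576-85527560, plus strand). Exons of Sds overlap those of Plbd2 and Gm15690, and exons of Gls2 those of Spryd4, so some reads at these loci may belong to either gene. The median liver count was 5031.5 for Sds against 1819 for Plbd2 and 1 for Gm15690, and 8529 for Gls2 against 662 for Spryd4.

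In WT vehicle livers the 9 genes spanned a wide range of levels per kilobase of exon. Ass1 was highest at 1747 ± 147 CPM per kilobase (SD, n = 5), followed by Cps1 at 861 ± 56.6, Tat at 665 ± 158 and Tdo2 at 381 ± 27.7. A lower tier held Sds at 139.8 ± 43.6 CPM per kilobase, Otc at 129 ± 15.2, Gls2 at 127 ± 15.5, Asl at 100.0 ± 26.1 and Gpt2 at 63.8 ± 18.0. Ass1 did not overlap Cps1 and Tdo2 did not overlap Sds over the 5 livers, whereas each of the other neighbours in this order did overlap. Together the 9 genes took 1.36% to 1.65% of all gene counts in WT vehicle, 1.37% to 1.52% in WT CORT, 1.28% to 1.44% in AS vehicle and 1.53% to 1.71% in AS CORT livers. The AS CORT livers lay wholly above the AS vehicle livers, while the WT groups overlapped.

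**Figure D1:**
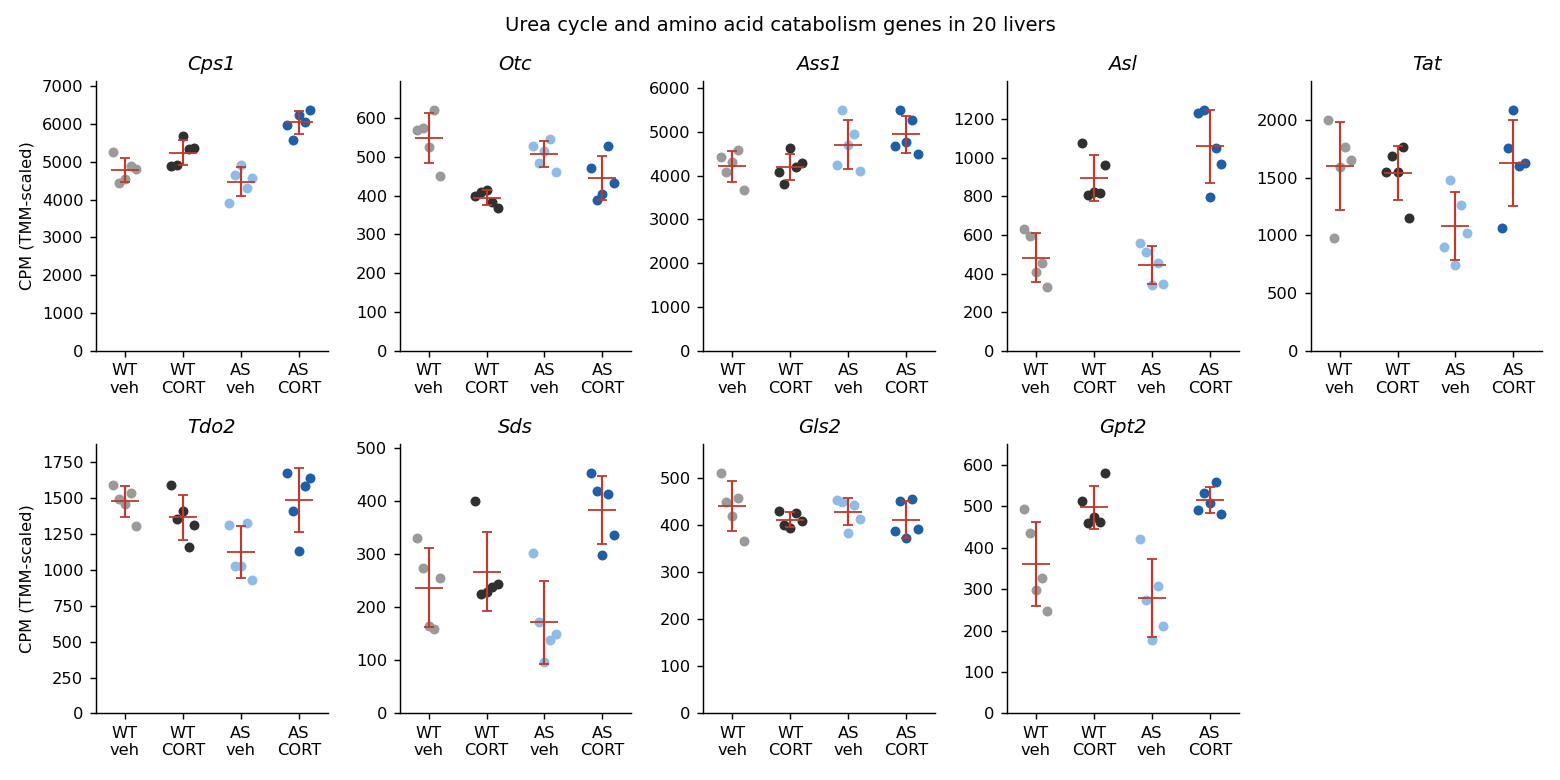
Expression of the 9 genes by group. The vertical axis of each panel is TMM-scaled CPM from 0, each point is 1 liver, and the red dash and bars are the mean and SD of 5 livers. Asl separates CORT from vehicle in both genotypes, Otc separates them in WT, and Cps1 and Gpt2 in AS.

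The bases just upstream of 3 of the genes are shown for reference. RefSeq (GRCm38.p6) gave the 250 bases before the start for 5 of the 9 genes, and those of Otc and Gpt2, whose calls with CORT are described further on, and of Tat, a textbook GR-induced gene, are printed 5′ to 3′ on the strand of the gene, with CCAAT boxes on either strand in capitals. The windows are chrX:10252055-10252304 for Otc, chr8:85492326-85492575 for Gpt2 and chr8:109990186-109990435 for Tat.
Otc: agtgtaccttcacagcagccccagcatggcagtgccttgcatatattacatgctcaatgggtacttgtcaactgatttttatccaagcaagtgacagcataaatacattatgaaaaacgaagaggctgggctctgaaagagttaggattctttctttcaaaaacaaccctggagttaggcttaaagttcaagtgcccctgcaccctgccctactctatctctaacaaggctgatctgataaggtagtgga
Gpt2: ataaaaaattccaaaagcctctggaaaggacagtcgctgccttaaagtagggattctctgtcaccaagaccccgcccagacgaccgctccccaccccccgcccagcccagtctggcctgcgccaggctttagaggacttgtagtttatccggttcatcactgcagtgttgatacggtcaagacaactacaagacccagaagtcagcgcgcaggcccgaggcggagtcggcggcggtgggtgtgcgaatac
Tat: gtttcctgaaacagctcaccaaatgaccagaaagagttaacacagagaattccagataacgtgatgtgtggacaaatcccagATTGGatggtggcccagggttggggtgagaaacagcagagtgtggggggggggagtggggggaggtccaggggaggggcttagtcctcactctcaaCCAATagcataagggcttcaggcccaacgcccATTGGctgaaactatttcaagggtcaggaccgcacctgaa
The Tat window held 3 CCAAT boxes (CCAAT, or ATTGG on the other strand), at 168, 72 and 40 bases before the start, and the Otc and Gpt2 windows held none. Among the 5 genes with a window, Tdo2 also held a CCAAT box, at 78 bases before the start. Of 32851 RefSeq promoter windows of this length, 33.8% held the motif. Other motifs were searched on both strands in the same way. The GR motif TGTTCT was in 16.1% of all windows and in none of these 5 genes. The cyclic AMP response motif TGACG was in 17.8% and the C/EBP motif TTGCNNAA in 9.56%, again in none of the 5. The TATA motif TATAAA was in 12.4% of all windows and, among these 5 genes, in that of Tdo2, at 229 bases before the start. Only these letters in these windows were searched.

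The first comparison asked how continuous CORT altered the 9 genes in WT mice. Argininosuccinate lyase rose, ornithine transcarbamylase fell, and the classical glucocorticoid-induced genes Tat and Tdo2 did not pass the test. With an adjusted p under 0.05 as the threshold, 2 of the 9 genes passed (1 higher, 1 lower), where 18.6% of the 12273 genes tested passed (8.73% higher and 9.9% lower). Without the 6 livers set apart on the surrogate variable 3 of the 9 passed, where 19.3% of all genes did, and with the share of reads not aligned as a covariate 1 did, where 10.7% of all genes did. The median log2 fold change was -0.01 over the 9 genes and -0.00 over all genes.

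Asl was at 629.8, 595, 406, 453 and 332 CPM in WT vehicle livers and at 1075, 808, 820.0, 815 and 962 CPM in WT CORT livers. Every CORT liver exceeded every vehicle liver, and the first and second vehicle replicates were the highest of theirs. The log2 fold change was 0.89 (SE 0.176, adjusted p = 0.00111).

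Otc went the other way, from 568, 575, 524, 621 and 449 CPM in WT vehicle to 399, 409, 413, 382 and 369 CPM in WT CORT livers. The groups did not overlap, and the log2 fold change was -0.47 (SE 0.0877, adjusted p = 0.000649). With the share of reads not aligned as a covariate it was -0.20 (adjusted p = 0.158) and no longer passed. Asl (0.96, adjusted p = 0.0218) still passed in that fit. Asl and Otc were the 2 genes whose CPM did not overlap between WT CORT and WT vehicle livers, where 14.1% of all tested genes did not overlap.

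Gpt2 was at 494, 436, 297, 327 and 247 CPM in WT vehicle livers and at 512, 459, 474, 462 and 582 CPM in WT CORT livers. The first and second vehicle replicates, both among the 6 livers set apart on the surrogate variable, reached into or near the CORT range. The log2 fold change over all livers was 0.47 (SE 0.191, adjusted p = 0.0985), which did not pass. Without the 6 livers it was 0.77 (adjusted p = 0.00373), with the surrogate variable in the fit 0.56 (adjusted p = 0.00616), and without only WT vehicle replicate 1 it was 0.61 (adjusted p = 0.0353). It was also called without AS vehicle replicate 1, at 0.47 (adjusted p = 0.0491), where only the shared estimate of the spread changed.

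The remaining genes did not pass in WT mice. Cps1 went from 4785 ± 314 CPM to 5234 ± 332 CPM (log2 fold change 0.13, 95% interval -0.01 to 0.27). Ass1 was at 4216 ± 355 and 4199 ± 296 CPM, an interval of -0.18 to 0.16. Gls2 was at 441 ± 53.7 and 412 ± 15.6 CPM, an interval of -0.26 to 0.06. Tat, Tdo2 and Sds had wider intervals. Tat was at 1600 ± 379 and 1541 ± 236 CPM (interval -0.45 to 0.34), Tdo2 at 1478 ± 107 and 1368 ± 156 CPM (interval -0.34 to 0.11), and Sds at 237 ± 73.8 and 267 ± 74.7 CPM (interval -0.33 to 0.67). In the fit with the share of reads not aligned, the value of Tdo2 turned from -0.11 to 0.21, passing in neither.

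The second comparison asked the same in AS mice. The entry enzyme Cps1 and Asl of the cycle rose, and Tat, Tdo2, Sds and Gpt2 of amino acid breakdown. Whether these responses differed from those in WT mice is tested separately further on. In all, 6 of 9 genes passed and all 6 rose, where 27.5% of all genes tested passed (12.6% higher and 15% lower). The median log2 fold change was 0.43 over the 9 genes and -0.00 over all genes. The 3 genes that did not pass were Otc, Ass1 and Gls2. Without the 6 livers set apart on the surrogate variable the same 6 genes passed, where 25.6% of all genes did. With the share of reads not aligned as a covariate 3 did, Cps1, Asl and Tdo2, where 11.6% of all genes did.

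Cps1 was at 3914, 4653, 4924, 4309 and 4569.9 CPM in AS vehicle livers and at 5979, 5561, 6246, 6042 and 6369.9 CPM in AS CORT livers. The groups did not overlap, and the log2 fold change was 0.43 (SE 0.0708, adjusted p = 0.000119). It was 0.44 (adjusted p = 0.0261) with the share of reads not aligned in the fit.

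Asl rose from 561, 510.1, 341, 457 and 346 CPM to 1233, 1248, 798, 1049 and 965 CPM, without overlap of the groups. Its log2 fold change of 1.26 (SE 0.177, adjusted p = 2.54e-05) was the highest of the 9 over all 20 livers. Leaving out the 6 livers set apart put Sds at 1.33 and Asl at 1.18. Asl was at 1.35 with the share of reads not aligned in the fit, and passed.

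Among the catabolic enzymes, Gpt2 went from 420.4, 273, 177, 307 and 212 CPM to 491, 533, 509, 559 and 481 CPM. All CORT livers lay above all vehicle livers, of which replicate 1 was the highest, and the log2 fold change was 0.89 (SE 0.192, adjusted p = 0.00171). Cps1, Asl and Gpt2 were the 3 genes without overlap in AS mice, where 16.6% of all tested genes did not overlap.

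Sds went from 301, 172, 97.4, 137 and 149 CPM to 453, 418, 298, 413 and 336 CPM. A single pair overlapped, vehicle replicate 1 with CORT replicate 3, and the log2 fold change was 1.16 (SE 0.259, adjusted p = 0.00217). Both Sds (0.98, adjusted p = 0.187) and Gpt2 (0.86, adjusted p = 0.119) kept most of their size but did not pass with the share of reads not aligned in the fit.

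Tdo2 was at 1313, 1031, 1026, 1324 and 933 CPM in AS vehicle livers and at 1679, 1414, 1134, 1582 and 1641 CPM in AS CORT livers. CORT replicate 3 lay within the vehicle range and the other 4 CORT livers above it. The log2 fold change was 0.40 (SE 0.115, adjusted p = 0.0126), and 0.88 (adjusted p = 0.00163) with the share of reads not aligned in the fit.

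Tat was at 896, 1479, 739, 1266 and 1016 CPM in AS vehicle livers and at 1064, 1755, 2087, 1603 and 1627 CPM in AS CORT livers. The spread within both groups was wide, and CORT replicate 1 lay among the vehicle livers. The log2 fold change of 0.59 (SE 0.201, adjusted p = 0.0333) lay close to the threshold. Without any one of AS vehicle replicates 1, 3 and 5 or AS CORT replicates 2, 3 and 5, it was between 0.48 and 0.60 with adjusted p values from 0.0518 to 0.0934, and over all 20 livers left out in turn it was between 0.48 and 0.73. It was 0.24 (adjusted p = 0.706) with the share of reads not aligned in the fit.

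Otc in AS mice was at 506 ± 33.8 CPM with vehicle and 445 ± 56.2 CPM with CORT. Its log2 fold change was -0.19 (SE 0.0875, adjusted p = 0.121), it passed without AS CORT replicate 4 (-0.25, adjusted p = 0.0336), and it was 0.22 (adjusted p = 0.209) with the share of reads not aligned in the fit. Ass1, at 4702 ± 560 and 4943 ± 421 CPM, had an interval of -0.10 to 0.24. Gls2, at 429 ± 29.4 and 412 ± 39.4 CPM, had an interval of -0.22 to 0.10. Averaged over the genotypes, CORT raised Cps1, Asl, Sds and Gpt2 and lowered Otc, 5 of 9 genes where 37.1% of all genes passed (17.5% higher and 19.6% lower). Leaving out the 6 livers set apart gave 5 of 9, where 37.6% of all genes did. In the fit with the share of reads not aligned, 2 passed, Asl and Tdo2, where 14.6% of all genes did, and Otc went from -0.33 (adjusted p = 0.000293) to 0.010 (adjusted p = 0.959).

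**Figure D2:**
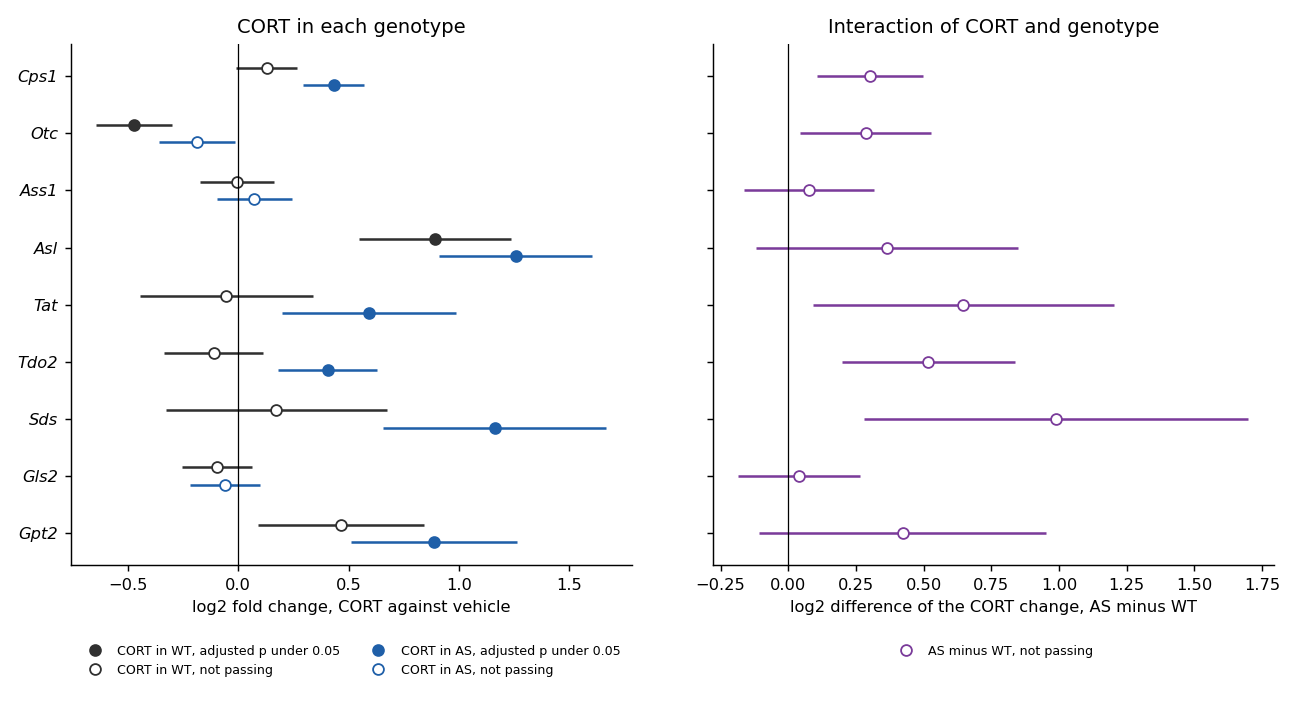
Change of the 9 genes with CORT. The left panel gives log2 fold changes of CORT against vehicle in WT (black) and AS (blue) livers with 95% intervals, filled where the adjusted p was under 0.05, and the right panel the difference of the changes, AS minus WT. In WT 2 genes passed and in AS 6, where 18.6% and 27.5% of all genes did. All 9 differences lie to the right of 0, where 48.9% of all genes do, and none passed.

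Because more of the 9 genes passed in AS than in WT mice, the difference itself was tested as an interaction of genotype and treatment. None of the 9 passed in edgeR (5 had an unadjusted p under 0.05), and none of the 12273 genes did, so 0% of all genes were called. At an unadjusted p under 0.05 there were 995 genes in all, and the DESeq2 Wald test called 9 genes, none of them among the 9. All 9 interaction values were above 0, where 48.9% of all genes were. Those with an unadjusted p under 0.05 were Sds at 0.99 (SE 0.362, adjusted p = 0.501), Tat at 0.65 (SE 0.283, adjusted p = 0.573), Tdo2 at 0.52 (SE 0.163, adjusted p = 0.474), Cps1 at 0.30 (SE 0.100, adjusted p = 0.476) and Otc at 0.29 (SE 0.124, adjusted p = 0.568). Asl was at 0.37 (interval -0.12 to 0.85) and Gpt2 at 0.42 (interval -0.11 to 0.95), with wide intervals, and for Ass1 (-0.16 to 0.32) and Gls2 (-0.19 to 0.26) they centred near 0. Without the 6 livers set apart on the surrogate variable, the value of Asl fell from 0.37 to 0.08, Ass1 and Gls2 turned to -0.00 and -0.03, and Sds was at 1.05 and Tat at 0.78. None of the 9 passed in the fit without them, where 0.00815% of all genes did, or with the share of reads not aligned as a covariate, where 0.0652% did. The CORT response of these genes was not shown to differ between the genotypes.

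The genotypes were also compared under each treatment, with the same livers that enter the comparisons above. With vehicle, none of the 9 genes passed between AS and WT mice, where 0.0163% of all genes did (2 genes, 0.00815% in each direction), although 8 of the 9 values were below 0, and 6 of the 9 without the 6 livers set apart. Those with an unadjusted p under 0.05 were Tdo2 at -0.39 (SE 0.115, adjusted p = 0.249) and Tat at -0.57 (SE 0.201, adjusted p = 0.322), where 1270 of the 12273 genes were. Ass1 was the gene above 0, at 0.16. With CORT, again none of the 9 passed, where 0.277% of all genes did (34 genes), and all 9 values were above 0. The median over all genes was 0.00090 in that comparison. Tat turned to -0.14 with the share of reads not aligned in the fit and Gls2 went from 0.00073 to -0.00195 without the 6 livers, so that 8 of the 9 were above 0 in each. Cps1 at 0.21 (SE 0.0707, adjusted p = 0.367) and Ass1 at 0.24 (SE 0.0867, adjusted p = 0.421) had an unadjusted p under 0.05, as had 1018 of the 12273 genes. With the share of reads not aligned in the fit, 1 gene passed in this comparison, Otc at 0.41 (adjusted p = 0.0275), where 0.505% of all genes did. No gene of the 9 was free of overlap between AS and WT livers under either treatment, where 1.64% of all tested genes with vehicle and 2.18% with CORT did not overlap. For Tat and Tdo2 the AS vehicle livers had the lowest group means (1079 and 1125 CPM), and the AS CORT means (1627 and 1490 CPM) were close to those of both WT groups.

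Cell type markers were read beside these changes, where 8.73% of all genes tested were higher and 9.9% lower with CORT in WT, and 12.6% higher and 15% lower in AS livers. In bulk tissue, fewer cells of a type and less RNA per cell cannot be told apart. Of the 6 Kupffer cell and macrophage markers, 5 fell in each genotype, and their summed level went from 136 to 188 CPM with vehicle to 69.5 to 102 CPM with CORT in WT livers, and from 185 to 260.4 CPM to 71.4 to 103.5 CPM in AS livers. Ptprc, which is made by all leukocytes, fell in each genotype, from 3.96 ± 0.347 to 1.46 ± 0.580 CPM in WT and from 4.94 ± 1.01 to 1.68 ± 0.435 CPM in AS livers. The other tested gene of the lymphocyte and neutrophil list, the B cell gene Cd79a, passed the filter on low counts only through the AS vehicle group, at 0.630 to 1.28 CPM, so its calls are not read. Marco, counted among the 6 macrophage markers, passed that filter only through the WT CORT group, so its direction is not read either. Of 5 blood markers 2 fell in WT and 4 in AS livers. Of 7 hepatocyte markers none passed in WT and 2 rose in AS livers, and their summed level was 97699 to 111623 CPM in WT vehicle, 103111 to 118936 in WT CORT, 96335 to 128513 in AS vehicle and 117934 to 143522 in AS CORT livers. Hepatocytes are zoned, with urea synthesis mainly around the portal vein. Of 8 periportal markers 1 rose and 2 fell in WT and 3 rose and 1 fell in AS livers, with a summed level of 5028 to 7375 CPM in WT vehicle, 5144 to 6519 in WT CORT, 5108 to 5712 in AS vehicle and 6715 to 7742 in AS CORT livers. Of 7 pericentral markers tested, 1 rose and 4 fell in WT and 2 rose and 2 fell in AS livers, with summed levels of 6655 to 13249.6 CPM in WT vehicle, 4629 to 6871 in WT CORT, 5525 to 9427 in AS vehicle and 4919 to 7549 in AS CORT livers. Of the other lists, sinusoidal endothelial markers had none of 5 passing in WT and 3 lower in AS, stellate cell markers 1 of 5 lower in WT and 3 in AS, and cholangiocyte markers none of 3 in WT and 1 lower in AS. Some markers also stand in the gene lists described next, so their values are counted in both places. These are Glul, Oat and Slc1a2 of the pericentral, Hal of the periportal and Hnf4a of the hepatocyte markers. The part of these shifts in the changes of the 9 genes was not tested.

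The wider amino acid network was read from lists of genes chosen by pathway, with earlier results of these data known. Their counts beside the shares of all genes are therefore descriptions and not tests. Beside each of their counts stand the shares of all genes tested, 8.73% higher and 9.9% lower in WT and 12.6% higher and 15% lower in AS livers. Each list was also read in the fit with the share of reads not aligned (the covariate fit) and in the 14 livers left without the 6. In the covariate fit 1317 genes (10.7%) passed in WT, 649 of them higher, and 1424 (11.6%) in AS, 636 of them higher. In the 14 livers 19.3% of all genes passed in WT and 25.6% in AS. Of 8 methionine and cysteine genes, 6 rose and none fell in WT, and 7 rose and 1 fell in AS livers. Bhmt, which remethylates homocysteine, went from 1860 ± 726 to 6357 ± 1556 CPM in WT and from 2107 ± 803 to 6392 ± 1474 CPM in AS livers (log2 fold changes 1.77 and 1.60). Mat1a, which makes S-adenosylmethionine, rose by 0.79 and 1.10 in log2 fold change and Ahcy, which hydrolyses S-adenosylhomocysteine, by 0.68 and 0.94. Cbs, which starts transsulfuration, was at -0.21 in WT, not passing, and fell by 0.34 in AS livers. The list's median log2 fold change was 0.62 in WT and 0.79 in AS. The covariate fit gave 5 higher in WT and 4 in AS with none lower, and Bhmt in AS livers was at 1.47 (adjusted p = 0.0650), which did not pass. The 14 livers gave 4 higher and 1 lower in WT, and 7 higher and 1 lower in AS.

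In the tryptophan and kynurenine pathway, which Tdo2 opens, 4 of 10 genes rose and 1 fell in WT, and 4 rose and 3 fell in AS livers. Afmid, the formamidase after tryptophan dioxygenase, rose by 0.68 and 0.62 in WT and AS (log2 fold change), Kynu, the kynureninase, by 0.46 and 0.33, and Ido2, a dioxygenase of the same step as Tdo2, by 0.33 and 0.27. Aadat, a kynurenine aminotransferase, fell by 0.24 and 0.22, and Qprt and Kyat1 passed in AS livers (-0.19 and -0.43) and not in WT livers (-0.11 and -0.17). The median was 0.18 in WT and 0.12 in AS. In the covariate fit 3 genes rose in each genotype and none fell, so Aadat, Qprt and Kyat1 no longer passed, nor did Kynu. In the 14 livers 4 rose and none fell in WT, and 3 rose and 1 fell, Kyat1, in AS.

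Around serine and glycine, Sdsl, a paralog of Sds, rose by 1.05 and 1.10, Dmgdh by 0.86 and 0.81, and Agxt, a glyoxylate aminotransferase, fell by 0.90 and 0.92, with 3 of 14 genes higher and 3 lower in WT and 3 higher and 2 lower in AS livers and medians of 0.098 and -0.057. Sdsl, Dmgdh and Agxt passed in both genotypes in the covariate fit, which gave 3 higher and 2 lower in WT and 3 higher and 1 lower in AS, and in the 14 livers, with 4 higher and 3 lower in each. Psat1, counted among the 14 genes, passed the filter on low counts only through the AS vehicle group, so its direction is not read. Beside Sdsl, the log2 fold change of Sds was 0.17 in WT, not passing, and 1.16 in AS livers.

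Of 12 genes tested that supply the cycle with nitrogen and cofactors, 2 rose and 2 fell in WT and 2 rose and none fell in AS livers, with medians of 0.11 and 0.16. In the covariate fit none passed in either genotype, although the medians were 0.15 and 0.22. In the 14 livers 1 rose and 2 fell in WT and 2 rose in AS. Glul, glutamine synthetase, rose by 0.33 and 0.45 on the log2 scale in WT and AS. Got2, mitochondrial aspartate aminotransferase, rose by 0.21 in WT and was at 0.13 in AS, not passing. Car5a, which supplies bicarbonate, was at 0.17 and 0.22 and passed in neither. Oat, ornithine aminotransferase, fell by 0.81 in WT and was at -0.49 in AS, not passing. Aqp9, a channel gene, fell by 0.52 in WT and was at -0.22 in AS, not passing.

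Branched-chain amino acid breakdown, which runs mostly outside liver, gave 4 lower and none higher of 17 genes in WT and 2 lower and 1 higher in AS livers, with medians of -0.098 and -0.011. Ppm1k, the phosphatase that activates the branched-chain ketoacid dehydrogenase, fell by 0.77 and 0.72 and Ivd by 0.49 and 0.32. None of the lower calls held in the covariate fit, where Ppm1k was at -0.48 and -0.26 and Ivd at -0.23 and 0.06 and 1 gene rose in AS, and the 14 livers gave 3 lower in WT and 1 lower and 1 higher in AS.

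Phenylalanine and tyrosine metabolism around Tat gave 1 of 8 lower in WT (Gch1, -0.61) and 1 of 8 higher in AS (Hgd, 0.34), with medians of -0.0057 and 0.090. Gch1 did not pass in either other fit, whereas Hgd passed in both in AS livers, with 2 higher in AS in the covariate fit. For histidine, 1 of 4 fell in WT and 1 rose and 1 fell in AS livers, with Amdhd1 down by 0.87 and 0.70 and Uroc1 up by 0.20 in AS, and medians of -0.18 and -0.011. Amdhd1 also fell in both other fits, and Uroc1 passed in neither. For lysine and proline, 1 of 7 rose and 3 fell in WT and 2 rose and 1 fell in AS livers, with medians of -0.043 and 0.048. Prodh, proline dehydrogenase, rose by 0.51 and 0.62, Aass by 0.48 in AS, and Aldh4a1 fell by 0.46 and 0.40. Prodh passed in neither genotype and Aldh4a1 in WT alone in the covariate fit, which gave 1 higher and 1 lower in WT and 1 higher in AS, while both passed in the 14 livers.

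Of 9 transporters tested, 2 rose and 3 fell in WT and 4 rose and 1 fell in AS livers (medians -0.36 and -0.036), with Slc43a1 up by 0.67 and 0.97, Slc3a1 up by 0.93 and 0.69, and the glutamine transporter Slc38a3 at -0.70 in AS livers, lower in both genotypes. The arginine transporter Slc7a2 fell by 1.08 in WT and was at -0.20 in AS, not passing. In the covariate fit 2 rose and 1 fell in WT and only Slc43a1 rose in AS, and Slc38a3 (-1.01 and -0.71) did not pass. In the 14 livers 3 rose and 4 fell in WT and 4 rose and 2 fell in AS. The interaction test passed for no gene of these lists in edgeR, as for no gene of the whole table, with Slc7a2 at 0.88 (adjusted p = 0.508), so none of these responses was shown to differ between the genotypes. Compared directly, none of these pathway genes passed between AS and WT livers with vehicle, and with CORT 1 did, Amdhd1, which was higher in AS by 0.41 (adjusted p = 0.0207). The covariate fit called Amdhd1 (0.55, adjusted p = 0.0110), Dbt (0.40, adjusted p = 0.0289) and Hpd (0.51, adjusted p = 0.0305) higher in AS with CORT, and none of them passed in the 14 livers.

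**Figure D3:**
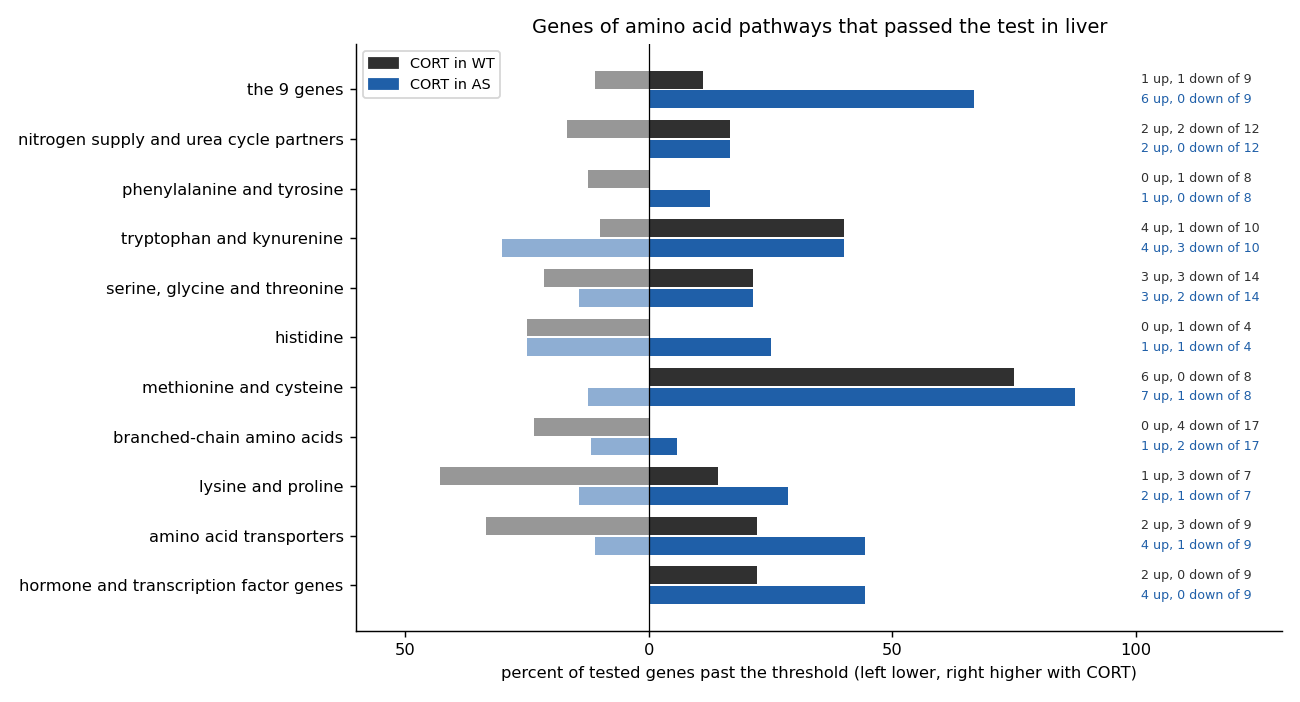
Share of tested genes of each amino acid pathway list that passed the test for CORT, higher to the right (full colour) and lower to the left (pale), in WT (black) and AS (blue) livers, with counts at the right edge. Methionine and cysteine genes rose in 6 of 8 (WT) and 7 of 8 (AS), and the 9 genes in 1 and 6 of 9. Of all genes tested, 8.73% (WT) and 12.6% (AS) were higher.

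Among 9 hormone and transcription factor genes that govern amino acid catabolism, 2 rose in WT and 4 in AS livers and none fell, with medians of 0.084 and 0.45, where 8.73% and 12.6% of all genes were higher. Foxo1 rose in both, by 0.41 (adjusted p = 0.0108) and 0.79 (adjusted p = 2.31e-05) in log2 fold change. Klf15, a glucocorticoid-induced regulator of amino acid breakdown, was at 0.05 (adjusted p = 0.910) in WT and rose by 0.82 (adjusted p = 0.00515) in AS livers. Cebpb was at 0.91 (adjusted p = 0.0533) in WT and rose by 1.62 (adjusted p = 0.000894) in AS, and Hnf4a was at 0.23 (adjusted p = 0.0703) and rose by 0.45 (adjusted p = 0.000614). Fgf21, a hormone of fasting, rose by 1.82 (adjusted p = 0.0134) in WT and was at 0.84 (adjusted p = 0.222) in AS. Cebpa, Creb3l3, Gcgr, the glucagon receptor, and Ppargc1a passed in neither genotype, with log2 fold changes between -0.21 and 0.14.

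None of the regulators passed in WT in the covariate fit, while Foxo1 and Hnf4a passed in AS livers, where 10.7% (WT) and 11.6% (AS) of all genes passed in either direction. Klf15 at 1.05 (adjusted p = 0.0756) and Cebpb at 1.30 (adjusted p = 0.189) in AS livers did not pass in that fit. In the 14 livers 5 regulators rose in WT and 4 in AS, where 19.3% and 25.6% of all genes passed in either direction. Those passing in WT then included Cebpb at 1.31 (adjusted p = 0.000606) and Hnf4a at 0.34 (adjusted p = 0.0174). The GR target Per1, a clock gene, rose in the 14 livers by 2.23 (adjusted p = 0.000910) in WT and by 4.75 (adjusted p = 2.25e-06) in AS, against 0.46 and 1.84, not passing, over all livers.

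Among the cell type markers, 5 macrophage genes fell in each genotype in the covariate fit and so did Ptprc, where 10.7% (WT) and 11.6% (AS) of all genes passed in either direction. None of the pericentral, sinusoidal endothelial and cholangiocyte markers passed there, 1 periportal marker rose and 1 fell in WT and 1 rose in AS, 1 stellate cell marker fell in AS, 1 blood marker fell in each genotype and 2 hepatocyte markers rose in AS. The median log2 fold change in AS livers went from -0.57 to -0.63 for sinusoidal endothelial, from -0.54 to -0.82 for stellate cell and from -0.97 to -1.44 for blood markers. It moved toward 0 for pericentral markers (-0.22 to -0.046 in AS, -0.81 to -0.52 in WT) and for cholangiocyte markers in AS (-0.13 to -0.084). Syt1 fell in WT alone. In the 14 livers 4 macrophage markers fell in WT and 5 in AS, and Ptprc fell in each, where 19.3% and 25.6% of all genes passed in either direction. Of the pericentral markers 2 rose and 4 fell in WT and 2 rose and 2 fell in AS, and of the periportal markers 1 rose and 2 fell in WT and 2 rose and 1 fell in AS. Further, 1 hepatocyte marker rose in WT and 2 in AS, 1 stellate cell marker fell in each genotype, and 2 sinusoidal endothelial and 4 blood markers fell in AS and none in WT.

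The 9 genes also varied among livers of the same group, and unevenly. In WT vehicle livers the coefficient of variation was 6.57% for Cps1 and 7.27% for Tdo2, and 31.2% for Sds, 28.2% for Gpt2, 26.1% for Asl and 23.7% for Tat. The 6 livers set apart on the surrogate variable held the top ranks of their own group for Asl and for Sds in every group. They did not do so for Tat, where WT vehicle replicate 2 and AS CORT replicate 1 were the lowest of their groups. Across all 20 livers, with group means removed, the surrogate variable correlated with Asl (r = -0.80), Sds (r = -0.78), Gpt2 (r = -0.66), Tdo2 (r = -0.54), Gls2 (r = -0.46) and Otc (r = -0.26), and in the other direction with Cps1 (r = 0.48), Tat (r = 0.42) and Ass1 (r = 0.14). Since it was estimated from all genes, these 9 included, the values are descriptions.

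Pairs of the 9 genes were compared within the 14 other livers, because the livers fell into 2 sets and the set of 6 left too few livers per group. Of 36 pairs of log2 CPM deviations, none passed after adjustment over the pairs, and 6 had an unadjusted p under 0.05 by Pearson correlation. The pair with the highest r was Asl and Gpt2, with r = 0.85 and rho = 0.87 (permutation within groups, p = 0.00727 and 0.00493, adjusted 0.0872 and 0.103). Without the 2 livers farthest from the median of Asl, r was 0.82. Asl and Gls2 followed (r = 0.82, rho = 0.80, permutation p = 0.00488 and 0.00821, adjusted 0.0872 and 0.103), with r = 0.80 without the 2 farthest livers. Over all 20 livers 6 of the 36 pairs passed.

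**Figure D4:**
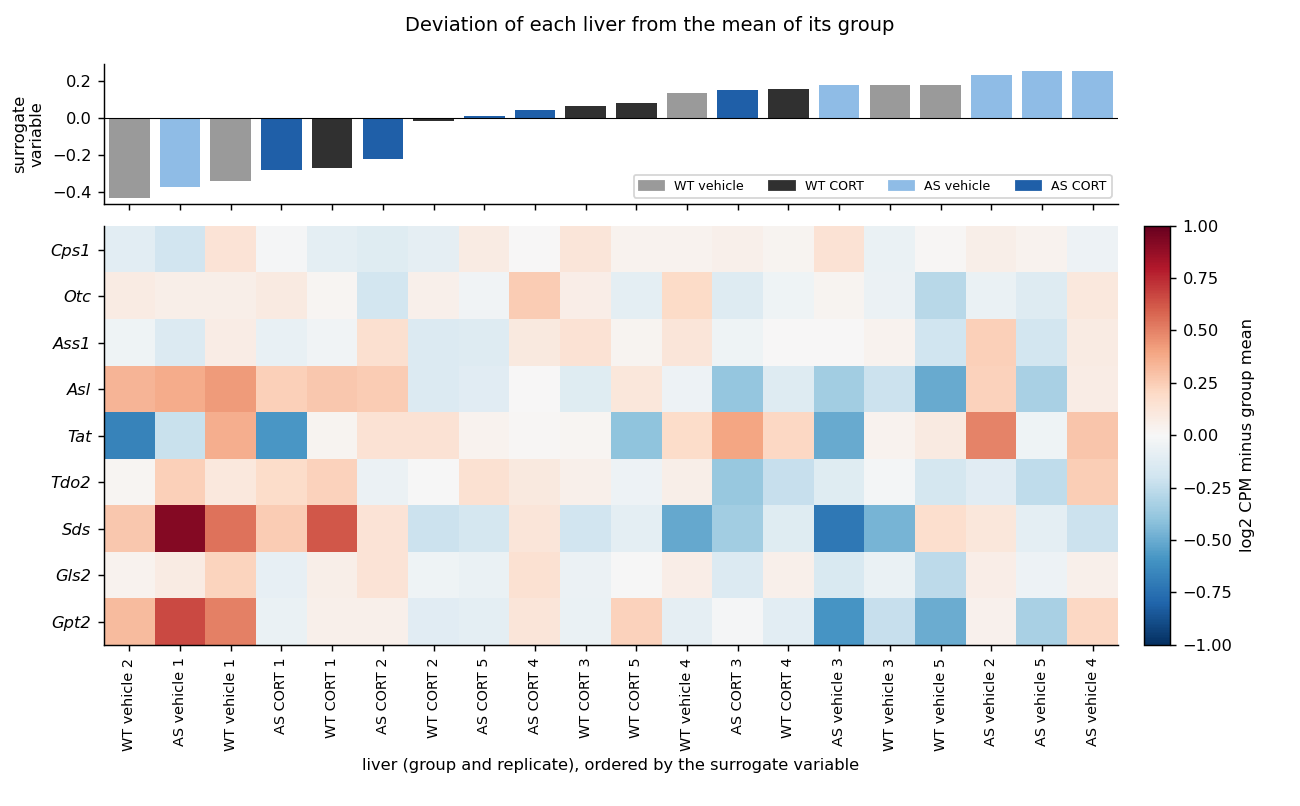
Deviation of each liver from the mean of its group. Columns are the 20 livers ordered by the surrogate variable (bars, top, coloured by group), rows are the 9 genes, and colour gives log2 CPM minus the group mean. The 6 livers at the left are red for Asl and Sds in all cases, and Tat has its darkest blue among them.

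For each of the 9 genes, the tested gene most like it was taken as the one with the highest Pearson correlation of deviations over the 20 livers, among 12272 genes. These were Cops7a for Asl (r = 0.94), Cyth1 for Sds (r = 0.91), Itm2b for Otc (r = 0.90), Tsku for Gpt2 (r = 0.90), Slc15a4 for Gls2 (r = 0.89), Tmem59 for Tdo2 (r = 0.88), D130043K22Rik for Tat (r = 0.83), Dera for Ass1 (r = 0.82) and Med13l for Cps1 (r = 0.80). None of the 9 had another of the 9 as its closest gene. Within a liver all genes come from the same library at the same depth, and the livers fall into the 2 sets described above.

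The hippocampus of the same cohort gave the levels of the same genes in a second tissue. In 18 hippocampi, after leaving out the 2 that the study set aside, the median of Gpt2 was 76.2 CPM, of Ass1 26.5, Gls2 16.6, Asl 14.3 and Tdo2 7.33 CPM. Otc was at 0 in 10 hippocampi, and Cps1, Tat and Sds had medians of 0.230, 0.137 and 0.300 CPM, at or near the 0.138 CPM that 3 counts gave. These 4 genes did not pass the filter on low counts and were not tested. Of the 5 tested genes, 1 passed in each genotype, where 2.92% (WT) and 3.77% (AS) of 14949 genes passed, and in both it was Gpt2. Gpt2 rose from 64.9 ± 5.58 CPM (n = 4) to 86.3 ± 5.20 CPM (n = 5) in WT hippocampus (log2 fold change 0.41, SE 0.0933, edgeR adjusted p = 0.0200) and from 59.8 ± 8.30 CPM (n = 4) to 87.6 ± 10.4 CPM (n = 5) in AS hippocampus (0.55, SE 0.0936, edgeR adjusted p = 0.00154). The groups did not overlap in either genotype, the lowest AS CORT hippocampus being at 70.6 CPM and the highest AS vehicle one at 70.1 CPM. The share of all tested genes without overlap was not counted in hippocampus, so this separation cannot be weighed against it.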

How the data were processed

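RNA from frozen liver and hippocampus was made into stranded mRNA libraries and sequenced as 100-bp pairs on the DNBSEQ platform. The authors checked reads with FastQC and MultiQC, aligned them to mm10 with STAR and deposited raw counts per gene from HTSeq-count. The annotation release and the strand setting are not given in the sources used here. Reads on no gene took 15.4% to 23.3% of the table in liver and were left out of library sizes. Symbols and exon lengths came from GENCODE M21, which matched 55394 of 55573 identifiers.

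The 20 livers were fitted together with edgeR 4.0.16 in R 4.3.3 (quasi-likelihood F test, TMM, 1 coefficient per group). A gene was kept if 3 or more livers of any 1 group exceeded 20 counts after median-of-ratios scaling, which left 12273, all 9 members described among them. P-values were adjusted by Benjamini-Hochberg over these, with 0.05 as the threshold. Standard errors were the log2 fold change over the square root of F, and 95% intervals used 1.96 standard errors. No pair of livers of a group agreed within sampling noise (smallest chi-square per degree of freedom 15.3). The labels give no batch and do not pair the groups. Hippocampi were fitted in the same way without the 2 libraries the study left out. Correlations were tested by 100000 permutations within groups. Alternatives used DESeq2 1.42.0, limma 3.58.1 and sva 3.50.0. The share of reads not aligned as a covariate (log2 scale) and the fit without 6 livers were added after seeing the data.

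The members and lists were chosen with earlier results of these data known. Of 10 members by the rule, 1 is not reported here. Named genes were the 9 members, Ube3a, 4 GR targets, the regulators, at most 3 genes per pathway list and direction by adjusted p for CORT averaged over the genotypes, and the gene most like each member. Counting intervals cover sampling of reads only, and p-values the spread between these livers.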

Additional observations from a re-analysis of the deposited data

Results flagged for a closer look

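Sds in the WT CORT group was flagged because 1 of the 5 livers stood apart: replicate 1 was at 399.8 CPM and the other 4 were between 225 and 243 CPM, a gap of 0.893 of the range of the group, above Dixon's critical value of 0.710. It was the only group of 36 (9 genes in 4 groups) past that value, and chance flags about 1 group in 20. The same liver was the highest of its group for Asl and Tdo2 and is 1 of the 6 livers set apart on the surrogate variable. Without it the log2 fold change of Sds with CORT in WT mice was -0.02 in place of 0.17, and passed the test in neither case.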

How the results depend on the processing

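The counts of called genes among the 9 were within 1.5 times of those reported under these alternatives: DESeq2's Wald test, DESeq2 size factors, upper-quartile scaling, no filter, fitting each pair of groups alone, 1 surrogate variable, limma-voom with quality weights, and leaving out each liver. Leaving out 1 liver gave 2 to 3 called in WT, 5 to 7 in AS, 5 averaged over the genotypes and 0 in the other comparisons. With the share of reads not aligned as a covariate, 1 was called in WT, 3 in AS, 2 averaged over the genotypes and 1 between AS and WT with CORT. That share does not overlap between CORT and vehicle livers of a genotype, so it and the treatment cannot be fully told apart in these groups.

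Over all genes, the covariate gave 1317 (WT), 1424 (AS) and 1791 (averaged) calls in place of 2286, 3380 and 4549. The small counts moved most. AS against WT with vehicle (2 genes) gave 42 with DESeq2, 4 with the surrogate variable, 1 with the covariate, 0 without the 6 livers, 0 with only the groups compared and 1 to 4 when 1 liver was left out. AS against WT with CORT (34 genes) gave 93 with DESeq2, 78 with limma-voom, 85 with the surrogate variable, 62 with the covariate, 16 without the 6 livers and 13 to 62 when 1 liver was left out. The interaction (0 genes) gave 9 with DESeq2, 2 with no filter, 1 with limma-voom, 2 with the surrogate variable, 8 with the covariate, 1 without the 6 livers and 0 to 1 when 1 liver was left out. Of the 36 correlated pairs, 6 passed over 20 livers, 4 without the 2 farthest livers and 0 within the 14 livers.

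Some values changed sign. Otc averaged over the genotypes passed at -0.33 (adjusted p = 0.000293) and was 0.010 with the covariate, and Otc in AS passed at -0.25 without AS CORT replicate 4 and was 0.22 with the covariate. The others given here passed with neither sign. When 1 liver was left out, Ass1 in WT ranged from -0.053 to 0.026, Tat in WT from -0.19 to 0.039, Sds in WT from -0.020 to 0.32 and the interaction of Gls2 from -0.020 to 0.099. With the covariate, Ass1 in WT was 0.019, Tdo2 in WT 0.21 and Gls2 in AS 0.019. Without the 6 livers, Ass1 in WT was 0.013, the interaction of Ass1 -0.0035 and that of Gls2 -0.032, and with the surrogate variable the interaction of Gls2 was -0.018. The cause of these shifts was not tested. With 5 livers a group, the adjusted p of Tat in AS crossed the threshold when a single liver was left out. No paired analysis was possible because the replicate numbers only name the livers within a group, and the labels tie no liver of one group to a liver of another.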
